A study of Mus musculus with 6 samples.

Results

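The fatty acid elongase genes Elovl1, Elovl2, Elovl3, Elovl5, Elovl6 and Elovl7 and the fatty acid desaturase genes Fads1, Fads2, Fads3 and Fads6 were taken by symbol from a liver RNA-seq table of 12366 genes. All 10 were found there. The libraries came from livers of male C57BL/6 mice fed chow to an age of 22 weeks and fasted for 48 hours, 3 from wild-type mice (WT) and 3 from Acss2-/- mice (Acss2-KO), which lack the enzyme that makes acetyl-CoA from acetate in the cytosol and nucleus. The labels give no litter, collection time or animal of origin for a library and do not say in which tissues the deletion acts. The p-values therefore speak only of how far the libraries scatter, and some of that scatter may be technical. Values are reads per 1e6 reads of the library (CPM), and libraries are written WT1 to WT3 and KO1 to KO3 by genotype and replicate number.

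Elongases of the endoplasmic reticulum condense an acyl-CoA with malonyl-CoA, the step that starts each cycle of chain lengthening, and each elongase prefers acyl chains of certain length and saturation. The front-end desaturases place double bonds nearer to the carboxyl end of the chain. In liver, Fads2, Elovl5, Fads1 and Elovl2 act in turn on dietary linoleic and alpha-linolenic acid to make arachidonic, eicosapentaenoic and docosahexaenoic acid, while Elovl6 lengthens palmitate made by fatty acid synthase. Several of these genes are known targets of the lipogenic factor SREBP-1c.

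Acss2 itself was at 74.0, 81.0 and 73.5 CPM in WT and at 1.37, 3.56 and 2.35 CPM in Acss2-KO, as the labels say. Depth, estimated from the spacing of the lowest values, ranged from 21.8 to 30.8 M reads, so that 5 CPM stood for 109 to 154 reads; values below 1 CPM are listed at 0. KO1 held transcripts of other tissues: Myh1, a skeletal muscle myosin, was at 114.6 CPM there, at 2.79 CPM in KO3 and listed at 0 in KO2 and in WT, and Krt13, a keratin of stratified epithelia, at 62.2 CPM against at most 1.15 CPM elsewhere (both chosen after their values were seen). WT2 stood highest for Kupffer cell and macrophage markers. KO1 and WT2 are called the doubted libraries, and calls that end or counts that move by over 1.5 times without both are given with the results.

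Of the 9 members with a mean of at least 5 CPM, 6 were lower in Acss2-KO: Elovl2, Elovl3 and Elovl6 among 5 elongases, and Fads1, Fads2 and Fads3 among 4 desaturases. The test was limma on log2(CPM + 1) over 9355 genes, adjusted by Benjamini-Hochberg, at a threshold of 0.05. Over all tested genes 23.1% were lower and 13.4% higher by that rule, 36.5% together. No member was higher by limma, either at an adjusted p or at an unadjusted p under 0.05, whereas the authors' deposited table lists 1, Elovl7. Elovl1, Elovl5 and Fads6 did not pass. For the 6 lower members the groups did not overlap, which held for 32.8% of tested genes in that direction and 52.9% in either. The median log2 fold change of the 9 members was -1.36, beside -0.12 over all tested genes. Liver RNA is a mixture, so fewer cells of a type and less RNA per cell cannot be told apart. Without KO1 all 6 members were lower, and without both it and WT2 there were 4 (Elovl2, Elovl6, Fads2 and Fads3). Over all genes 2161 were lower and 1252 higher. Lower genes numbered 1302 without WT1, 1345 without WT2 and 1239 without KO3. Higher genes numbered 780 without WT2, 801 without KO1 and 519 without KO3. With median-of-ratios scaling 1681 were lower and 1753 higher, and the same count of 6 members was lower.

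**Figure D1:**
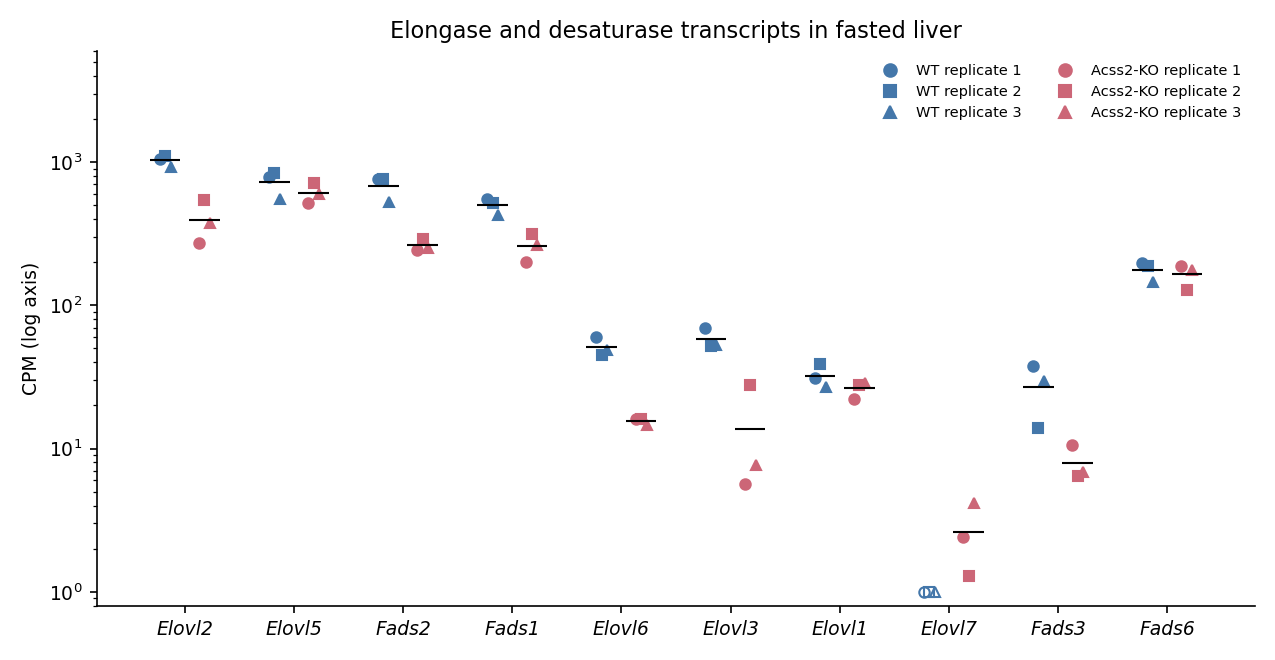
CPM on a log axis for each of the 10 genes in each library; symbols mark the replicate, colours the genotype, black bars the group mean, and open symbols a value listed at 0. Elovl2, Elovl3, Elovl6, Fads1, Fads2 and Fads3 have all Acss2-KO points below all WT points, and the points of Elovl1, Elovl5 and Fads6 overlap.

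**Figure D2:**
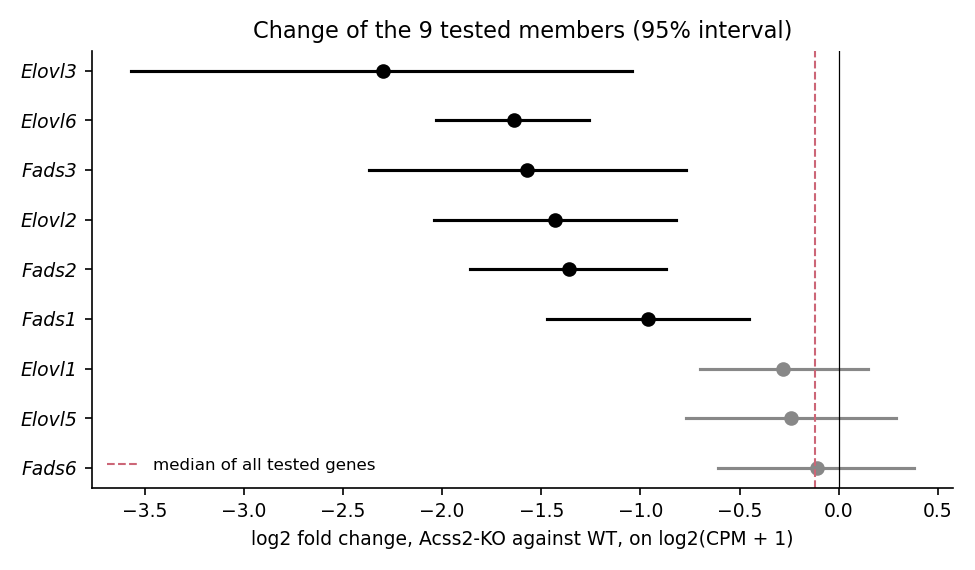
Log2 fold change of Acss2-KO against WT for the 9 tested genes, with 95% intervals from limma; black marks genes that passed, grey those that did not, and the dashed line is the median of all tested genes at -0.12. Intervals of 6 genes lie below 0, from -0.96 for Fads1 to -2.30 for Elovl3.

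The 250 bases before the start of 4 members are shown because these members differ in what their transcripts did: Fads2, Elovl2 and Elovl6 were lower and Elovl5 did not pass. The sequences are from RefSeq, build GRCm38.p6, printed 5′ to 3′ on the strand of the gene. Capitals mark motif matches on either strand. The CCAAT box was searched as CCAAT, which the factor NF-Y binds, and reads ATTGG where it lies on the other strand. The GC box, a site of Sp1, was searched as GGGCGG. The E-box of helix-loop-helix factors was taken as CACGTG in its palindromic form, and the TATA box by the letters TATAAA alone. The sterol regulatory element of the LDL receptor type was searched as well.
Fads2, chr19:10101504-10101753, minus strand: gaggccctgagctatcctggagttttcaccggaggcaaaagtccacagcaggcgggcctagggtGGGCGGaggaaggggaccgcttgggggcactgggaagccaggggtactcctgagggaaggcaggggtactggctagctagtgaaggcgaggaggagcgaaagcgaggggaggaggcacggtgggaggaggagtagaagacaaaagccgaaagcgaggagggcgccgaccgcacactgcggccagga
Elovl2, chr13:41220404-41220653, minus strand: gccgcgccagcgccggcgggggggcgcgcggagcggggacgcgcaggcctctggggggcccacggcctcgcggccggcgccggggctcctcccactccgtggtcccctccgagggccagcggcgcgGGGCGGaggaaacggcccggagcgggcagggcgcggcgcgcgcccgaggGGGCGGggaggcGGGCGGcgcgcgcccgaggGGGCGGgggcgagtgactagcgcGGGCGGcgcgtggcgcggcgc
Elovl6, chr3:129532136-129532385, plus strand: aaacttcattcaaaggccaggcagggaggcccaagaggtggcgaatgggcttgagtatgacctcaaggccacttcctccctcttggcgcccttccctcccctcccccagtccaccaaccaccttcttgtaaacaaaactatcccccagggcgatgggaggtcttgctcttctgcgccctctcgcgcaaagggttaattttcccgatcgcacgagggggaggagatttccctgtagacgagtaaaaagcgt
Elovl5, chr9:77917115-77917364, plus strand: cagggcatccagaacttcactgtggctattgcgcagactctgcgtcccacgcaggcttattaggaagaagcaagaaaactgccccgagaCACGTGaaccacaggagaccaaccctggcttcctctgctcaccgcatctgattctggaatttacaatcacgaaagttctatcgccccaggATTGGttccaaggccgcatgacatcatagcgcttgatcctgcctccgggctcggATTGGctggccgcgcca
Elovl5 held the CCAAT box at 2 places and the E-box at 1, Elovl2 held the GC box at 5 places and Fads2 at 1, and Elovl6 held none of the 5 motifs. Of 32851 windows of this length in the same table, 33.8% held the CCAAT box, 32.7% the GC box, 6.02% the E-box, 12.4% the TATA box and 0.192% the sterol regulatory element. Elovl2 has a further window in the table, for a start further downstream and held none of the motifs. GC content was 87.2% for Elovl2, 64.8% for Fads2, 56.4% for Elovl6 and 55.6% for Elovl5, beside a median of 52.4% over all windows. The table matched 8 of the 10 members, all but Elovl3 and Fads1. Among those not shown, Fads3, which was lower, held the CCAAT box at 2 places and the GC box at 2. Elovl1, which did not pass, held the CCAAT box at 1 place and the GC box at 5 in its upstream window. Fads6, which did not pass either, held the GC box at 1 place and no CCAAT box. Elovl7, under the filter, held the GC box at 3 places. No link between motifs and changes was tested.

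Fads2 (ENSMUSG00000024665, chromosome 19, 10064164 to 10101503) encodes the desaturase that opens the polyunsaturated pathway. It was at 765, 765 and 526 CPM in WT and at 246, 292 and 251 CPM in Acss2-KO. The Acss2-KO libraries lay close together and far below the lowest WT library. The fall was 2.57-fold (log2 fold change -1.36, SE 0.22, limma adjusted p = 0.0028). The call held under all 17 alternatives, with adjusted p between 0.0018 and 0.019.

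Elovl5 (ENSMUSG00000032349, chromosome 9, 77917364 to 77984519), which lengthens the product of Fads2, was at 792, 843 and 553 CPM in WT. In Acss2-KO it was at 523, 714 and 601 CPM, within and just under the WT range. The log2 fold change was -0.24 with a 95% interval from -0.77 to 0.29 (limma adjusted p = 0.45), so a fall as large as that of Fads2 lies outside the interval and smaller changes of either sign lie inside it.

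Fads1 (ENSMUSG00000010663, chromosome 19, 10182888 to 10196870) makes arachidonic and eicosapentaenoic acid from the product of Elovl5. Its levels were 556, 516 and 425 CPM in WT and 199.5, 313 and 263 CPM in Acss2-KO, with no overlap. The fall was 1.95-fold (log2 fold change -0.96, SE 0.23, limma adjusted p = 0.012), the smallest among the 6 lower members. The call was lost without WT1 (adjusted p = 0.051) and with WT2 and KO1 both left out (adjusted p = 0.087), and the authors' deposited table gives Fads1 an adjusted p of 0.088.

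Elovl2 (ENSMUSG00000021364, chromosome 13, 41182495 to 41220405) lengthens polyunsaturated chains on the way to docosahexaenoic acid. Transcripts were at 1060, 1105 and 929 CPM in WT and at 271, 545 and 375 CPM in Acss2-KO. KO2 was the highest of its group here, and it lay nearest the WT mean for 4 of the 6 lower members. This was not particular to the members. Over all tested genes, on log2(CPM + 1), KO2 correlated with the WT libraries at 0.887 to 0.923, and KO1 and KO3 at 0.787 to 0.86. Elovl2 fell 2.70-fold (log2 fold change -1.43, SE 0.27, limma adjusted p = 0.0050), with adjusted p between 0.00092 and 0.026 under the 17 alternatives.

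Ratios of members were formed within each library, where the scaling of the library cancels except for the 1 CPM added to each value. The pairs were chosen with the members' changes known, so the ratios restate those changes on another scale and are given as a description. Each ratio is of CPM + 1, without correction for length, so only its change between genotypes is read. Without the added 1 the log2 difference went from -0.66 to -0.73 for Elovl3 to Elovl6. For Elovl6 to Elovl5 it went from -1.40 to -1.46. The log2 ratio of Elovl2 to Elovl5 was 0.42, 0.39 and 0.75 in WT and -0.95, -0.39 and -0.68 in Acss2-KO: Elovl2 gave more reads than Elovl5 in each WT library and fewer in each Acss2-KO library. The mean ratio was lower by a log2 difference of -1.19. For Fads1 to Elovl5 the log2 ratio was -0.53 ± 0.17 in WT and -1.25 ± 0.11 in Acss2-KO (SD, n = 3 each). Fads2 to Fads1 went from 0.45 ± 0.13 to 0.04 ± 0.22, the smallest of the 5 differences at -0.40, with KO1 (0.30) just under WT3 (0.31). Elovl6 to Elovl5 went from -3.79 ± 0.37 to -5.19 ± 0.24. These 4 ratios did not overlap between genotypes; an exact two-sided permutation test of 3 against 3 cannot go below p = 0.1, so no test could pass the threshold. Elovl3 to Elovl6 overlapped, at 0.20, 0.21 and 0.13 in WT and -1.36, 0.74 and -0.83 in Acss2-KO.

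**Figure D3:**
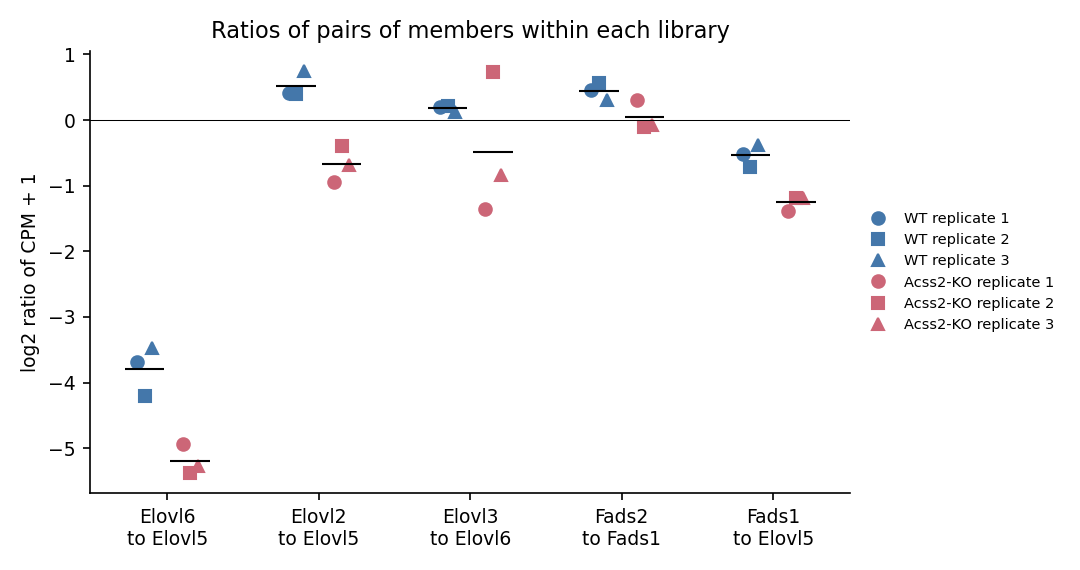
Log2 ratio of CPM + 1 for 5 pairs of members in each library, with black bars at the group means; symbols mark the replicate and colours the genotype. Acss2-KO points lie below WT points for 4 pairs, and for Elovl3 to Elovl6 the Acss2-KO points run from -1.36 to 0.74 around WT values of 0.13 to 0.21.

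Elovl6 (ENSMUSG00000041220, chromosome 3, 129532355 to 129638495) encodes the elongase that turns palmitate into stearate. It was at 60.6, 44.9 and 48.5 CPM in WT and at 16.2, 16.2 and 14.5 CPM in Acss2-KO. The Acss2-KO libraries differed among themselves by 1.12 times from lowest to highest, the least of the 6 lower members. Elovl6 fell 3.12-fold (log2 fold change -1.64, SE 0.17, limma adjusted p = 0.00055). It had the smallest p of the family, with adjusted p between 1.3e-05 and 0.0079 under the 17 alternatives.

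Scd1, the main hepatic stearoyl-CoA desaturase, which acts on the products around Elovl6, was at 724, 1479 and 147 CPM in WT and at 78.8, 99.0 and 40.2 CPM in Acss2-KO. The groups did not overlap, but WT3 was far below the other WT libraries. The log2 fold change of -2.97 (SE 0.91) did not pass limma's test (adjusted p = 0.054). It passed without WT3 (adjusted p = 0.0096), with upper-quartile scaling (0.043), with a minimum of 20 CPM (0.048) and on log2 without a pseudocount (0.050, under the threshold before rounding). The authors' deposited table gives Scd1 a log2 fold change of -3.25 with an adjusted p of 6.9e-15. Scd2 was low in both groups, at 5.21 ± 2.05 and 3.89 ± 1.05 CPM (SD, n = 3 each), under the filter.

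Elovl3 (ENSMUSG00000038754, chromosome 19, 46131897 to 46135307) makes saturated and monounsaturated very long chains and is known in mouse liver for male-biased, rhythmic expression. WT libraries held 69.6, 52.0 and 53.1 CPM and Acss2-KO libraries 5.70, 27.9 and 7.73 CPM. KO2 was several times above the other Acss2-KO libraries, and the spread within that group, 4.89 times from lowest to highest, was the widest among the tested members. The fall was 4.93-fold, the largest estimate in the family (log2 fold change -2.30, SE 0.53, limma adjusted p = 0.017). The call was lost without WT1 (adjusted p = 0.071), WT2 (0.069) or KO3 (0.064), and with WT2 and KO1 both left out (0.18); the smallest adjusted p over its alternatives was 5.8e-05, without KO2.

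Other male-biased genes and clock genes were listed beside Elovl3. Of 9 tested male-biased genes, 3 were lower and 3 higher (median log2 fold change -0.10). Moxd1, a monooxygenase-like gene, was listed at 0 in WT and was at 6.41, 21.6 and 7.73 CPM in Acss2-KO (limma adjusted p = 0.0024). The cytochrome P450 gene Cyp2d9 rose from 960 ± 192 to 1632 ± 259 CPM and the complement gene C6 from 77.0 ± 11.1 to 118.5 ± 23.4 CPM (SD, n = 3 each). The transporter gene Slco1a1 fell from 186 ± 71.5 to 17.5 ± 2.96 CPM, the coenzyme A hydrolase gene Nudt7 from 206 ± 32.7 to 85.7 ± 31.9 CPM and the omega-hydroxylase gene Cyp4a12a from 161 ± 18.3 to 67.3 ± 31.8 CPM (SD, n = 3 each). Leaving out any library other than WT1 left 1 male-biased gene higher, as did leaving out both doubted libraries. Of 18 tested clock and clock output genes, 8 were higher and 4 lower (median log2 fold change 0.38). The period gene Per1 rose from 45.7 ± 7.71 to 303 ± 116 CPM and the repressor gene Ciart from 11.5 ± 3.64 to 79.8 ± 8.54 CPM, and the output factor gene Dbp fell from 87.5 ± 15.2 to 13.1 ± 8.43 CPM. The count of lower clock genes was 1 without WT1 or KO3, and 2 without both doubted libraries, where Dbp had an adjusted p of 0.079. The part of either programme in the Elovl3 result was not tested.

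Elovl1 (ENSMUSG00000006390, chromosome 4, 118428093 to 118432953), the elongase of saturated very long chains found in most tissues, was at 30.9, 38.9 and 27.1 CPM in WT and at 22.3, 27.9 and 28.8 CPM in Acss2-KO. The groups overlapped. The log2 fold change was -0.28, with a 95% interval from -0.70 to 0.15 (limma adjusted p = 0.27).

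Elovl7 (ENSMUSG00000021696, chromosome 13, 108214404 to 108287105), which also lengthens saturated chains, was listed at 0 in each WT library. In Acss2-KO it was at 2.41, 1.28 and 4.17 CPM, about 69, 33 and 91 reads at the estimated depths. A listed 0 in WT1, WT2 and WT3 stands for fewer than about 29, 31 and 23 reads, so the groups were close at the low end. The gene fell under the filter and no fold is given here; with no filter its limma adjusted p was 0.056. The authors' deposited table gives it an adjusted p of 8.3e-08 and a positive log2 fold change of 2.60.

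Fads3 (ENSMUSG00000024664, chromosome 19, 10041548 to 10059671) encodes a desaturase that acts on sphingoid bases. It was at 37.5, 13.8 and 29.7 CPM in WT and at 10.6, 6.45 and 6.82 CPM in Acss2-KO. WT2 was closer to the Acss2-KO libraries than to the other WT libraries, and the WT spread of 2.71 times was the widest among the tested members. The fall was 2.96-fold (log2 fold change -1.57, SE 0.35, limma adjusted p = 0.011). It lost its call without WT3 (adjusted p = 0.054).

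Fads6 (ENSMUSG00000044788, chromosome 11, 115279622 to 115297663), a relative of these desaturases, was at 198, 189 and 145 CPM in WT and at 189, 128 and 177 CPM in Acss2-KO. The log2 fold change of -0.11 had a 95% interval from -0.61 to 0.38 (limma adjusted p = 0.71), and its sign turned with median-of-ratios (0.02), trimmed-mean (0.03) and quantile scaling (0.04), in the authors' deposited table (0.05) and without KO2 (0.06).

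Fads3, Fads2 and Fads1 lie in this order on chromosome 19, with 4493 bp between the deposited spans of Fads3 and Fads2 and 81385 bp between those of Fads2 and Fads1. The table held 6 other genes within 200 kb of them. Of these, 3 were tested and did not pass: the ferritin heavy chain gene Fth1 (1996 ± 156 and 1831 ± 116 CPM, limma adjusted p = 0.63), Tmem258 (20.5 ± 6.72 and 18.95 ± 0.867 CPM, adjusted p = 0.84) and Myrf (43.0 ± 13.1 and 34.2 ± 5.12 CPM, adjusted p = 0.39). Rab3il1, which lies next to Fads3, was under the filter at 3.27, 5.82 and 3.48 CPM in WT and 1.40, 1.79 and 1.15 CPM in Acss2-KO. Incenp and Syt7 were under 3 CPM in all 6 libraries. No test compared the desaturase genes with their neighbours.

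Levels of different genes were set side by side per kilobase of exon, with exon lengths from GENCODE vM1 by gene identifier. In WT the order was Fads2 (455 ± 91.5 CPM per kb), Elovl2 (268 ± 23.7), Elovl5 (207 ± 44.1), Fads1 (144 ± 19.5), Elovl3 (30.9 ± 5.23), Fads6 (26.6 ± 4.26), Elovl1 (11.8 ± 2.20), Elovl6 (8.63 ± 1.37) and Fads3 (8.26 ± 3.69), with Elovl7 listed at 0 (SD, n = 3). Ranges overlapped between Elovl5 and Fads1, Elovl3 and Fads6, Elovl1 and Elovl6, and Elovl6 and Fads3. In Acss2-KO Elovl5 moved up beside Fads2 (174 ± 27.3 and 174 ± 16.9 CPM per kb), ahead of Elovl2 (103 ± 35.9) and Fads1 (74.8 ± 16.5). Elovl3, at 7.31 ± 6.51 CPM per kb, dropped below Fads6 and its range overlapped that of Elovl1 (9.66 ± 1.29). The exon model used for Fads2 ends 1399 bp short of RefSeq's gene span, and if those bases were counted as exon, Fads2 would be at 236 ± 47.5 CPM per kb in WT and 90.4 ± 8.76 in Acss2-KO. Elovl5 made up 20.2% to 23.6% of the summed CPM of the 10 genes in WT and 34.5% to 35.2% in Acss2-KO, while Elovl2 went from 29.7% to 34.0% down to 18.2% to 26.3%. The sum itself was 3293 ± 481 CPM in WT and 1762 ± 295 CPM in Acss2-KO (SD, n = 3 each).

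The elongases hand their product to a ketoacyl reductase, a dehydratase and an enoyl reductase shared by all chain lengths. Hsd17b12, the reductase, was at 195, 219.8 and 199.5 CPM in WT and at 40.8, 85.6 and 58.9 CPM in Acss2-KO. It fell 3.42-fold (log2 fold change -1.78, SE 0.26, limma adjusted p = 0.0019). It was the 1 gene of 4 tested in this list to pass. The dehydratase genes Hacd3 (log2 fold change -0.02, 95% interval -0.42 to 0.38) and Hacd2 (-0.24, -0.65 to 0.16) and the enoyl reductase gene Tecr (-0.40, -0.84 to 0.04) did not pass; the sign for Hacd3 turned under each of the 4 scalings. Hacd3 was at 324 ± 3.90 CPM in WT and 320 ± 26.3 CPM in Acss2-KO (SD, n = 3 each).

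Desaturases draw electrons through cytochrome b5 and its reductase. Of 5 genes for forms of cytochrome b5 and its reductase, 4 were lower (median log2 fold change -0.77). Which of these forms serve the desaturases was not tested. Cyb5b fell from 274 ± 29.3 to 82.6 ± 37.1 CPM (SD, n = 3 each; log2 fold change -1.81, SE 0.30, limma adjusted p = 0.0034). Cyb5a, the most abundant, was at 1323, 1314 and 2106 CPM in WT and 690, 982 and 820 CPM in Acss2-KO. The reductase genes Cyb5r3 (log2 fold change -0.77) and Cyb5r4 (-0.52) were lower with limma adjusted p of 0.023 and 0.037. The count of 4 was 2 without WT1 or WT2, 1 without KO1 or KO3, 1 without both doubted libraries and 2 with trimmed-mean or quantile scaling, and Cyb5b was the gene that kept its call under all alternatives run.

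Genes that supply malonyl-CoA and palmitate moved in both directions, 3 of 9 lower and 2 higher (median log2 fold change -0.54). Acaca, the cytosolic acetyl-CoA carboxylase, was at 77.2, 81.0 and 54.2 CPM in WT and 24.9, 48.2 and 25.5 CPM in Acss2-KO, and Acacb, its mitochondria-linked relative, at 64.5, 62.2 and 45.6 CPM against 165, 115 and 149 CPM. Acaca fell (log2 fold change -1.13, limma adjusted p = 0.014) and Acacb rose (1.30, adjusted p = 0.0030). Fasn, the fatty acid synthase gene, rose from 128 ± 26.9 to 222 ± 59.2 CPM (SD, n = 3 each), with a limma adjusted p of 0.034. Its call was lost without WT1, WT3, KO1 or KO3 (adjusted p between 0.076 and 0.10) and without both doubted libraries (0.067). The counts of lower genes were 1 without WT1 or WT2, 5 without KO2 and 0 without KO3, where Acaca had an adjusted p of 0.062. The higher count was 1 without WT1, WT3, KO1 or KO3. Without both doubted libraries 1 gene was lower and 1 higher.

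Among 7 acyl-CoA synthetase genes, which activate the substrates, 1 was lower and 1 higher (median 0.17). Acsl3 fell from 17.1 ± 2.32 to 5.30 ± 1.70 CPM and Acsl4, which prefers arachidonic acid, rose from 30.9 ± 3.38 to 73.7 ± 19.1 CPM (SD, n = 3 each). The lower count was 2 without KO2. Peroxisomes shorten very long chains, the last step to docosahexaenoic acid included. Of 11 listed peroxisomal genes that handle acyl chains, not all of them genes of shortening, 4 were lower (median log2 fold change -0.61). Abcd2, a peroxisomal importer of very long chains, fell from 52.0 ± 7.91 to 8.40 ± 4.58 CPM. The thiolase gene Acaa1b and the enoyl reductase gene Pecr were lower with log2 fold changes of -1.74 and -1.90, and Pecr did not pass without WT1 (adjusted p = 0.059), WT2 (0.071) or KO3 (0.061). The peroxisomal count was 2 without WT1, WT2 or KO3, it reached 6 with another library left out, and 1 gene was higher without KO1 or without both doubted libraries. A list for the exchange of polyunsaturated chains in phospholipids held acyltransferase genes and the phospholipase-family genes Pla2g6 and Pla2g12b, which did not pass. Of its 6 tested genes, Lpcat3 was higher (0.74, limma adjusted p = 0.032) and Mboat7 lower (-0.72, adjusted p = 0.034). Lpcat3 did not pass without WT2, WT3, KO1 or KO3, and Mboat7 not without WT1, WT2, KO1 or KO3 (adjusted p between 0.060 and 0.13). Without both doubted libraries the adjusted p was 0.078 for Lpcat3 and 0.23 for Mboat7, and Mboat7 also did not pass with median-of-ratios (0.053) or trimmed-mean scaling (0.057). Neither of 2 tested ceramide synthase genes, Cers2 and Cers6, passed, though 1 was lower without WT3.

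**Figure D4:**
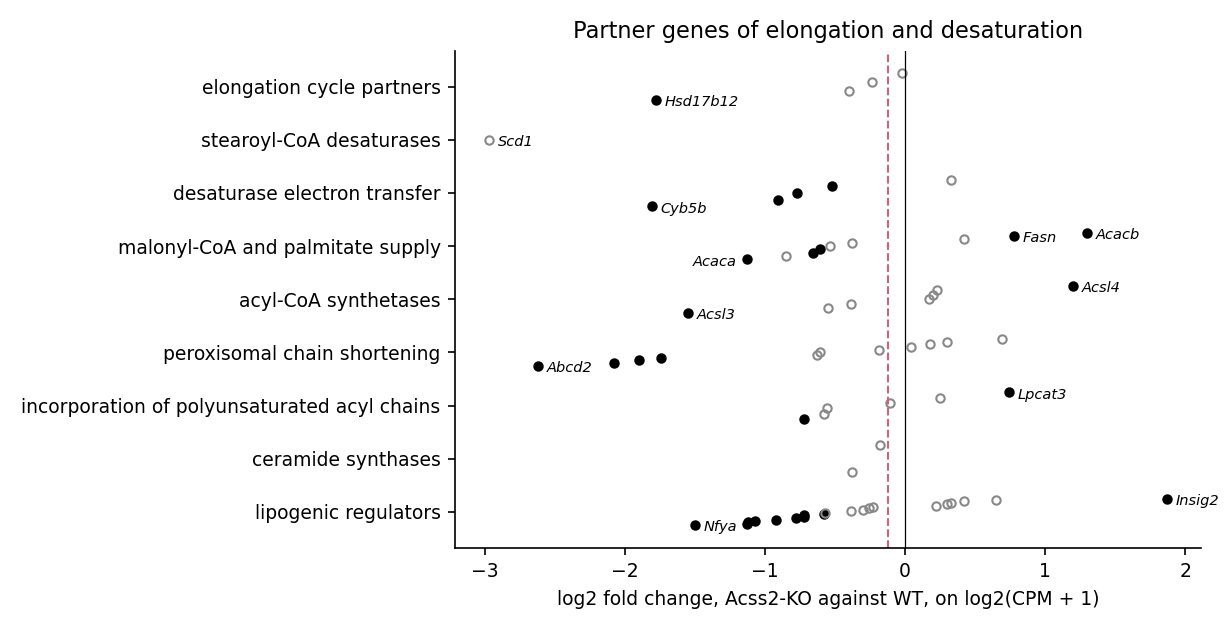
Log2 fold change of Acss2-KO against WT for each tested gene of 9 partner lists; filled black points passed limma's test, open grey points did not, and the dashed line is the median of all tested genes at -0.12. Hsd17b12 at -1.78 stands apart from the other genes of the elongation cycle, and Insig2 is the farthest to the right at 1.87.

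Of 20 regulators of lipogenic genes, 9 were lower, 1 was higher and 10 did not pass (median log2 fold change -0.48). Srebf1, which encodes SREBP-1, was at 63.6, 71.0 and 50.2 CPM in WT and 42.5, 37.5 and 30.9 CPM in Acss2-KO (log2 fold change -0.72, SE 0.19, limma adjusted p = 0.021). Transcripts for the SREBP-retaining proteins moved apart. Insig1, itself a known SREBP target, was at 110, 154 and 227.5 CPM in WT and 86.8, 66.7 and 62.7 CPM in Acss2-KO. Insig2 was at 236, 302 and 345 CPM in WT and 898, 1160 and 1152 CPM in Acss2-KO. Insig2 rose 3.65-fold (log2 fold change 1.87, SE 0.22, limma adjusted p = 0.00086). Nfya, a subunit of the factor that binds CCAAT, fell from 13.3 ± 1.86 to 4.13 ± 1.25 CPM, the lipogenic receptor gene Pparg from 16.2 ± 2.69 to 6.93 ± 1.15 CPM and the oxysterol receptor gene Nr1h3 from 108 ± 9.37 to 65.4 ± 8.0 CPM (SD, n = 3 each). The receptor gene Ppara fell from 227 ± 64.3 to 104.5 ± 0.42 CPM (SD, n = 3 each), with a limma adjusted p of 0.0093. Alternatives for Ppara are not reported here. Lower regulators numbered 5 without WT1 and 3 without KO3; higher regulators numbered 3 without KO2 and under each of the 4 scalings. Srebf1 did not pass without WT1 (adjusted p = 0.069), WT2 (0.082) or KO3 (0.095), nor Insig1 and Nr1h3 without KO3 (0.059 and 0.050). Without both doubted libraries Srebf1 (adjusted p = 0.061) and Nr1h3 (0.11) did not pass.

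Hepatocyte markers marked the tissue in both groups, with Alb between 62430 and 81810 CPM. Of 7 tested hepatocyte markers 1 was higher (Cps1) and 1 lower (Ttr); 2 were higher without WT3 and 2 lower without KO2. The other lists moved as follows, in summed CPM of the genes in the table, WT range against Acss2-KO range. Kupffer cell and macrophage markers went from 167 to 498 against 63.5 to 133, 3 of 7 lower, with WT2 highest. The count was 0 without WT2 or KO3, 1 without WT3 or KO1 and 1 without both doubted libraries or with median-of-ratios, trimmed-mean or quantile scaling. Sinusoidal endothelial markers were at 238 to 373 against 297 to 376 (1 higher and 1 lower of 7). Their higher count was 2 without WT2 or KO2 and 2 without both doubted libraries. With median-of-ratios, upper-quartile or quantile scaling it was 2, and with trimmed-mean scaling 3. Stellate and fibroblast markers were at 388 to 540 against 337 to 519.7 (2 of 6 lower), with desmin highest in KO1 at 72.0 CPM. Cholangiocyte markers were at 32.2 to 37.3 against 14.0 to 17.3 (Sox9 higher and Spp1 lower of 2), lymphocyte markers at 6.11 to 18.4 against 2.79 to 3.43 (1 of 1 lower, Ptprc) and erythroid markers at 141 to 237 against 34.8 to 57.4 (3 of 3 lower). Ptprc fell under the filter without WT2. None of the 5 adipocyte markers was in the table. The part of these cells in the results on the elongases and desaturases was not tested.

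The genes most like each lower member were sought among tested genes, leaving out symbols that start with Gm or end with Rik. Likeness was the root-mean-square distance over the 6 libraries of log2(CPM + 1) from the WT mean, as a description. Elovl2 was nearest to Lactb (distance 0.057) and Gstm6 (0.061), and Fads2 to Slc9a3r1 (0.065) and Dhrs7 (0.085). Fads1 was nearest to AI317395 (0.050) and Nf2 (0.060), and Elovl6 to Madd (0.093) and Ppm1k (0.097). Of the genes searched, Elovl3 had none nearer than Mtfp1 (0.217) and Fads3 none nearer than E2f8 (0.327). Within the family, Elovl2 and Fads2 were nearest to each other (0.249), and Elovl6 and Fads1 were each nearest to Fads2 (0.283 and 0.321).

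In the authors' deposited table, 5 members have a negative log2 fold change with an adjusted p under 0.05, beside 14.7% of its genes, and 1 has a positive one, beside 12.5%. In the authors' deposited table the log2 fold changes are -1.91 for Elovl3, -1.61 for Fads3, -1.56 for Elovl6, -1.23 for Fads2 and -1.22 for Elovl2. The member lower in the limma fit and not past 0.05 in the authors' deposited table is Fads1.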

How the data were processed

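Per the labels' protocols, Trizol was used for RNA and a TruSeq kit from Illumina for the libraries. The authors deposited log2 CPM per library, rounded to 2 decimals, with values below 1 CPM listed at 0; this unit was read from the values. A log2 fold change, a p-value and an adjusted p-value per gene were deposited too, from a tool not given in the sources used here. The submitters' processing notes list Bowtie 0.12.2 and mm8 without saying what each was used for. The deposited coordinates, printed unchanged, were taken as GRCm38: against RefSeq GRCm38.p6 the median distance between starts was 8 bp over 11623 genes. No source used here states the annotation, the strand setting of the counting or what was done with reads of several matches. Of the members, Elovl1 overlaps the protein-coding gene Cdc20 and Elovl3 overlaps Pitx3 in RefSeq. Elovl5, Elovl6 and Fads3 overlap long noncoding RNA genes, Fads1 a microRNA gene and Elovl7 pseudogenes. Reads at these places could be shared. The overlapping genes are not in the deposited table.

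CPM was computed as a power of 2, so that a listed 0 counts as 1 CPM. The 9355 genes averaging 5 CPM or more went into limma 3.58.1 (R 4.3.3, statmod 1.5.0; empirical Bayes, robust, with a trend of variance on mean) as log2(CPM + 1), with all 6 libraries, no covariate, Benjamini-Hochberg adjustment, threshold 0.05. On this log2(CPM + 1) scale, fold changes of low genes come out too small. The procedure was tested on simulated data. Whole reads could not be recovered from log values with 2 decimals, so no count model was used. Exon lengths are unions of GENCODE vM1 exons; 8 of 10 members have the same span there as in the deposited table.

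Members and lists were chosen with earlier results of these data known. Named genes are the members, Acss2, up to 4 passing genes of smallest p from each list, a set of pathway genes (Scd1, Scd2, Hsd17b12, Tecr, Hacd2, Hacd3, Srebf1, Insig1, Insig2), the 2 nearest genes of each lower member and genes within 200 kb of Fads1 to Fads3; not all are named. Alternatives were pseudocounts of 0.5 and 5, the scalings named in the text, no filter or 20 CPM, log2 without a pseudocount, libraries left out, and the replicate number as a block. Some genes of the partner lists are counted but their own values are not reported here.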

Additional observations from a re-analysis of the deposited data

How the results depend on the processing

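The count of 6 lower members ranged from 4 to 6 with 1 library left out, was 4 with WT2 and KO1 both left out, 5 with a minimum of 20 CPM, where Fads3 was not tested, and 6 under the other pseudocounts, the 4 scalings, no filter and log2 without a pseudocount. No member was higher under any alternative run. Over all genes, higher calls numbered 741 and lower calls 1112 with a minimum of 20 CPM, where fewer genes were tested. They numbered 715 and 1319 with both doubted libraries left out. With 1 library left out they ranged from 519 to 1608 and from 1239 to 2420. The highest counts, 1608 and 2420, came without KO2 and lie above the 1252 and 2161 with all 6 libraries. Leaving libraries out also lowers the number of samples, and the cause of the changes in count was not tested. The log2 fold change of Fads6 turned to 0.02, 0.03 and 0.04 with median-of-ratios, trimmed-mean and quantile scaling and to 0.06 without KO2, in a leave-one-out range from -0.25 to 0.06. That of Hacd3 turned to 0.11, 0.07, 0.12 and 0.14 with median-of-ratios, upper-quartile, trimmed-mean and quantile scaling, to 0.05 without KO1 (leave-one-out range -0.06 to 0.05) and to 0.04 with both doubted libraries left out. Each of the 5 ratios kept its sign without a pseudocount and with 1 library left out. Alternatives for genes outside the 2 families and for list counts were added after seeing the data.

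With the replicate number as a block, 5 members were lower (Elovl3 had an adjusted p of 0.057), Scd1 passed (adjusted p = 0.0016), the macrophage list had 5 lower genes, and over all genes 1260 were higher and 2137 lower. The numbers do not pair the libraries: same-numbered WT and Acss2-KO libraries correlated at -0.10, -0.14 and 0.09 in their deviations from the group means across genes. Depth limits Elovl7, whose WT values lie below the 1 CPM at which the table stops.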
